A study of Mus musculus with 64 samples.

Results

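A set of 10 genes that mark or build the primitive endoderm were followed here, Gata4, Gata6, Sox17, Sox7, Foxa2, Pdgfra, Dab2, Lama1, Lamb1 and Col4a1. They were chosen by symbol, with no filter on their values, and are 10 of the 55335 genes in the table of raw read counts. Primitive endoderm is the layer of the mouse blastocyst that gives rise to the yolk sac endoderm. Its fate is set against that of the epiblast, the source of embryonic stem (ES) cells: FGF4 signalling through the kinase MEK favours GATA6 and the endoderm, while NANOG holds the epiblast state. In the embryo Gata6 acts first, Pdgfra and Sox17 follow, and Gata4 and Sox7 come later. The cells then deposit a basement membrane of laminin-111, a trimer of the products of Lama1, Lamb1 and Lamc1, and of type IV collagen, made from Col4a1 and Col4a2.

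RNA was sequenced from V6.5 mouse ES cells, an established line, either wild type (WT) or carrying a degron on 1 of the 12 subunits of RNA polymerase II, RPB1 to RPB12. A degron is a tag that lets the plant hormone auxin (indole-3-acetic acid, IAA) send a protein to the proteasome through the plant receptor OsTir1. The labels give all groups, WT included, the same culture: 15% serum, 3 µM CHIR99021, which inhibits GSK3, and 0.5 µM PD0325901, which inhibits MEK and so blocks the FGF branch named above. OsTir1 was induced by 12 h of doxycycline at 2 µg/ml (1 µg/ml in the series text), after which cells stayed untreated or received 500 µM IAA for 12 h. This set has 26 groups of 2 libraries, 13 lines by 2 treatments. A further set of 12 libraries holds RPB1, RPB3 and RPB6 cells before IAA (0 h) and after 1 h. The labels do not say whether WT cells carry OsTir1 or whether a line is 1 clone. Since a degron removes protein, the mRNA of the tagged subunit is no check of the labels. Drosophila cells had been added as a spike-in, and their reads were not analysed here.

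The 12 h libraries held 3399838 to 7164928 counts and the 0 h and 1 h libraries 8598431 to 13281252. Levels are CPM, a gene's counts relative to a library size that was scaled by TMM, which assumes that most genes keep their share of the RNA. Removal of a polymerase subunit can break that assumption. After IAA the scaled median of all genes moved by -0.19 (log2) in RPB2 and -0.13 in RPB6. Scaled to total counts those medians were -1.03 and -0.75, and scaled to the 13 mitochondrial mRNAs, which another polymerase makes, -2.32 and -2.08. Mitochondrial mRNAs took 1.30% to 1.37% of the counts in untreated WT, 3.25% to 3.44% in RPB2 after IAA and 2.66% to 2.73% in RPB6 after IAA. Of the genes called in RPB2, 45.1% were higher with TMM, 21.2% with total counts and 0.636% with mitochondrial mRNAs. For RPB6 these shares were 45.0%, 23.6% and 0.264%, and for RPB1 54.0%, 63.7% and 32.9%. Directions below are therefore relative to the other nuclear genes. ES cell markers (7 genes) summed to 4217 to 6228 CPM in the untreated libraries.

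The promoters were read for sequence shared between neighbouring or partner genes. Col4a1 lies at chr8:11198423-11312826 on the minus strand and Col4a2 runs away from it on the plus strand. Their annotated first exons overlap by 22 bases (mm10, GENCODE M21). That stretch is shown because both basement membrane genes start on it, and because reads within it cannot be assigned to either gene where strand is not counted. The 250 bases before the RefSeq start of Lamb1 (position 31265293) are shown since Lamb1 was the member that differed from WT in every degron line. Both sequences are from RefSeq, build GRCm38.p6, plus strand, 5′ to 3′, at chr8:11312805-11312826 and chr12:31265043-31265292. Capitals mark GGGCGG, the core of the GC box, or its other strand CCGCCC, and CCAAT.
Col4a1 and Col4a2 shared: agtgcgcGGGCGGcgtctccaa
Lamb1 before its start site: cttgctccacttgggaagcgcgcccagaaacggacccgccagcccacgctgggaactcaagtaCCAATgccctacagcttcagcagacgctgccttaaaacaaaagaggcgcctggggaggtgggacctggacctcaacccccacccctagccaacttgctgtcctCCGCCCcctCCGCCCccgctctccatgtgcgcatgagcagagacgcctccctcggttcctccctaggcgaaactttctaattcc

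Promoter windows of 300 bases (250 before and 50 after a start) were found for Foxa2 (3 starts), Pdgfra, Col4a1, Col4a2, Lamb1 and Dab2 (2 starts). Entries for Gata4, Sox17, Sox7 and Lama1 were missing. Gata6 was not read, because entries on chromosome 18, where it lies, were left out. On either strand, GATAA, the core that GATA factors read, was found in 1 of the Foxa2 windows and, with 2 matches, in 1 of the Dab2 windows, and 25.4% of all 32851 mouse promoter windows hold it. CCAAT was found in the Col4a1, Col4a2 and Lamb1 windows and in 1 of the Foxa2 windows, against 37.4% of all windows. GGGCGG was found in those of Col4a1, Col4a2 and Lamb1 and in all 3 of Foxa2, against 35.7%. The Pdgfra window held none of the 3 motifs. These are matches of letters, and no binding was measured.

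In untreated cells the members fell into a low and a very low tier, judged per length as RPKM, the CPM divided by the kilobases of exon. Lama1 had a median of 7.41 RPKM over the 26 untreated libraries (range 2.67 to 11.2), Lamb1 3.21 (1.46 to 7.53) and Col4a1 2.76 (1.52 to 3.82). Gata4, a GATA zinc-finger factor of the later endoderm, followed at 1.28 RPKM (0.546 to 4.63). For scale, Lamc1, the third chain of laminin-111, stood at 88.0 RPKM and Nanog at 377. The other 6 members were far lower, with a median of 0.102 RPKM for Dab2 (0.0182 to 0.320), 0.0728 for Sox17, 0.0665 for Foxa2, 0.0641 for Sox7 (0 to 0.974), 0.0625 for Pdgfra (0 to 0.198) and 0.0285 for Gata6 (0 to 0.120). In bulk RNA a few cells with much of a transcript and many cells with little cannot be told apart.

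**Figure D1:**
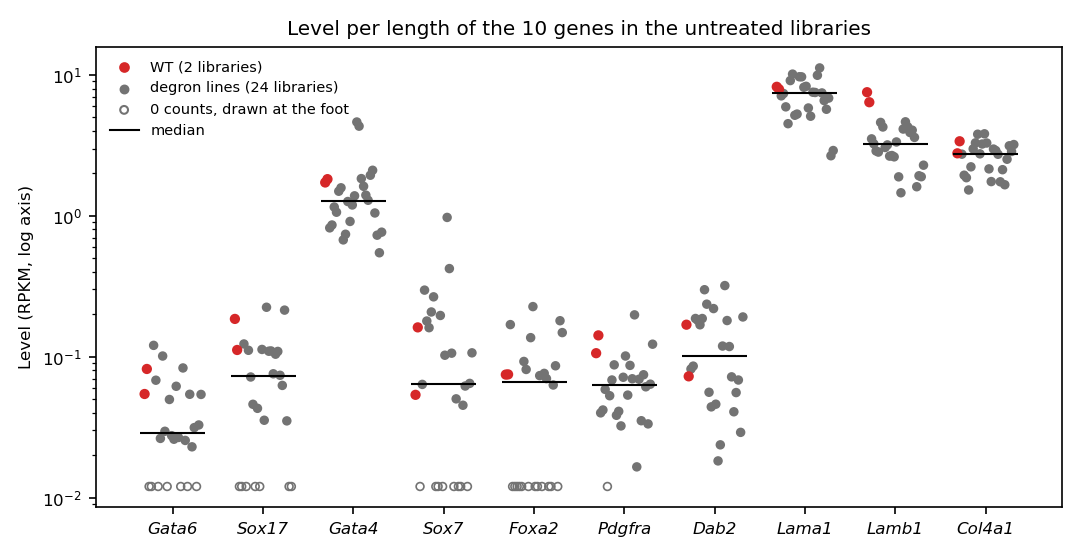
Levels of the 10 primitive endoderm genes in the 26 untreated libraries of the 12 h set, in RPKM on a log axis. Each point is 1 library (WT in red, open circles at the foot are libraries with 0 counts) and each bar is the median, from 7.41 for Lama1 down to 0.0285 for Gata6.

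The endoderm-specifying factors Gata6 (GATA factor), Sox17 and Sox7 (SOX factors) and Foxa2 (forkhead factor) gave almost no reads. Over all 52 libraries of the 12 h set Gata6 had 0 to 5 counts per library (60 in all), Sox17 0 to 8 (110 in all) and Foxa2 0 to 4 (53 in all). They were listed at 0 in 17, 12 and 22 libraries. Sox7 had 0 to 5 counts in each library except in the untreated RPB7 line, where it had 24 and 8. These 4 genes did not pass the filter on low counts, so 6 of the 10 members (Gata4, Pdgfra, Dab2, Lama1, Lamb1 and Col4a1) were tested in the 12 h set, and 7, with Sox7, in the 0 h and 1 h set. With such counts a response of Gata6, Sox17 or Foxa2 was not detectable at this depth in most lines. Ordered by group mean, neighbours among the 26 groups overlapped in 24 of 25 steps for Gata6, 25 for Sox17, 24 for Sox7 and 24 for Foxa2. They overlapped in 17 of 25 steps for Gata4 and Lama1 and 18 for Lamb1.

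The response to 12 h of IAA was asked with edgeR's quasi-likelihood test in each line (Benjamini-Hochberg adjusted over all 17928 genes, threshold 0.05). The p-values measure the spread between 2 libraries per group, pooled over 26 groups, and that spread may be technical. A call is described as standing without any single library where it held with each of the 4 libraries left out in turn. Of 40 calls among the 6 tested members in 13 lines, 13 were higher and 27 lower, and 27 stood without any single library. Under both total-count and mitochondrial scaling 22 of the 40 kept their call.

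Gata4 (chr14:63198922-63271692) fell in 9 degron lines and rose in none. Untreated WT libraries held 6.72 and 7.10 CPM, and WT libraries with IAA 9.17 and 8.24, a difference of 0.33 (log2) that did not pass (adjusted p = 0.66). In RPB6 Gata4 went from 4.66 and 5.41 CPM (26 and 32 counts) to 0.331 and 0 (1 and 0 counts). In RPB2 it went from 4.50 and 4.14 CPM (23 and 28 counts) to 0.476 and 0 (1 and 0 counts). In both lines the treated libraries thus held next to no Gata4 reads, far below every untreated library of the set. As a ratio of summed counts over library size, Gata4 was 30.2-fold lower in RPB6 (95% counting interval 5.21 to 1212) and 18.2-fold lower in RPB2 (3.13 to 735). The fitted log2 fold changes, -4.73 ± 0.75 (SE) with adjusted p = 3.3e-07 and -4.06 ± 0.82 with adjusted p = 3e-05, depend on the prior count.

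Falls of Gata4 in RPB8 and RPB10 also stood without any single library. RPB8 went from 7.17 and 6.32 CPM to 2.57 and 1.95 (-1.55 ± 0.38, adjusted p = 0.00042). RPB10 went from 7.57 and 8.21 CPM to 3.34 and 3.69 (-1.16 ± 0.28, adjusted p = 0.00088). Treated and untreated libraries did not overlap in either line. The 5 remaining calls were smaller and each was lost when a single library was left out: RPB1 (-0.93), RPB3 (-0.74), RPB5 (-1.14), RPB9 (-0.89) and RPB11 (-1.11). The adjusted p reached 0.34 without RPB1 IAA replicate 1, 0.20 without RPB3 IAA replicate 1, 0.15 without RPB5 IAA replicate 1, 0.12 without RPB9 untreated replicate 1 and 0.55 without RPB11 IAA replicate 2. In RPB4, RPB7 and RPB12 Gata4 did not pass. RPB7 had by far the most, 18.1 and 16.9 CPM untreated and 19.8 and 12.6 after IAA.

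Pdgfra (chr5:75152292-75198215), the receptor for PDGF and a surface marker of primitive endoderm, moved the other way. It rose in 7 degron lines and fell in none, from levels that amounted to 0 to 11 counts per untreated library. Such levels leave little room for a fall, so the lack of falls says little. The filter on low counts was met mainly by treated libraries, which held up to 33 counts. The Pdgfra p-values, here and in the comparisons below, are thus no support beyond the counts themselves. In RPB5 it went from 0.411 and 0.324 CPM to 5.49 and 6.22 (3.93 ± 0.56, adjusted p = 8.2e-08). In RPB1 it went from 0.400 and 0.420 CPM to 6.39 and 4.11 (3.60 ± 0.58, adjusted p = 6.3e-07). These treated libraries lay above every untreated library of the set, whose highest value was 1.99 CPM. RPB9 went from 0.166 and 0.694 CPM to 3.90 and 3.53 (3.06 ± 0.57, adjusted p = 3e-05), and RPB3 from 0.530 and 0.685 to 2.65 and 4.53 (2.51 ± 0.53, adjusted p = 0.00013). These 4 rises stood without any single library, in fits that kept the genes chosen by that filter.

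WT cells moved in the same direction. Their Pdgfra went from 1.06 and 1.42 CPM to 4.19 and 2.47 after IAA, a difference of 1.41 ± 0.48 that did not pass (adjusted p = 0.13), although the libraries did not overlap. Set against WT, the rise remained past the threshold in RPB5 (difference of responses 2.52 ± 0.85, adjusted p = 0.015) and in RPB1 (2.19 ± 0.86, adjusted p = 0.032). Neither stood without any single library. The RPB1 difference held in 3 of the 8 fits that left out 1 library (adjusted p = 0.12 without WT untreated replicate 2), and the RPB5 difference was lost without WT untreated replicate 2 (adjusted p = 0.081) or RPB5 untreated replicate 2 (0.067). Rises within RPB8 (1.31), RPB10 (1.74) and RPB11 (1.97) were lost when single libraries were left out, with adjusted p of 0.27 without RPB8 untreated replicate 1, 0.18 without RPB10 IAA replicate 1 and 0.31 without RPB11 IAA replicate 2. The RPB8 value turned to -0.16 when scaled to mitochondrial mRNAs. In RPB2 Pdgfra had 3 and 0 counts untreated and 0 in both treated libraries, too few to show a change, and in RPB6 it went from 0.717 and 1.01 CPM to 0.994 and 0.338 without passing.

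Dab2 (chr15:6299788-6440712), an endocytic adaptor that marks primitive endoderm, stayed between 0 and 2.85 CPM. It had 1 to 13 counts in untreated libraries and 0 to 12 in treated ones. It was called in 0 of the 13 lines by edgeR's test or DESeq2, and in 0 at an unadjusted p under 0.05. Under mitochondrial scaling the RPB2 value of Dab2 turned from 0.48 to -1.67 (adjusted p = 0.027).

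**Figure D2:**
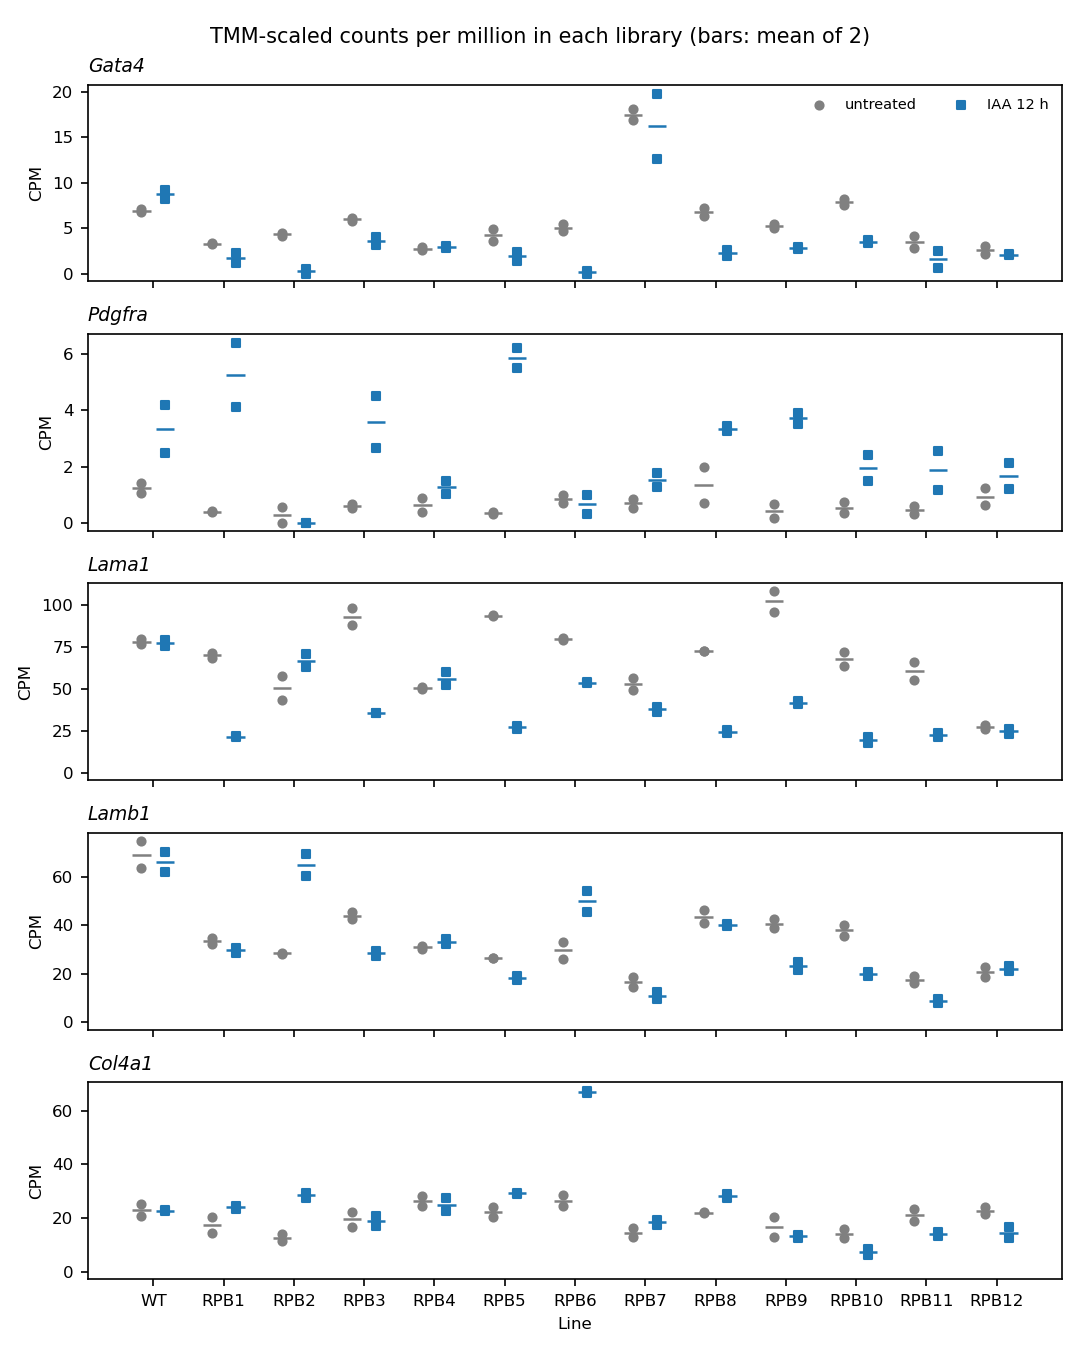
Levels (CPM, TMM-scaled, 1 panel per gene) of Gata4, Pdgfra, Lama1, Lamb1 and Col4a1 in the 52 libraries of the 12 h set, untreated (grey circles) and after 12 h of IAA (blue squares), with the mean of 2 libraries as a bar. Gata4 stands at 18.1 and 16.9 CPM in untreated RPB7 and near 0 in RPB2 and RPB6 after IAA, and Lama1 is lower after IAA in both libraries of RPB1, RPB3 and RPB5 to RPB11.

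Lama1 (chr17:67697259-67822647), the α1 chain of laminin-111, fell in 9 degron lines, and all 9 falls stood without any single library. Gata4 also fell in 9 lines, but with RPB2 in place of RPB7. WT held 79.6 and 76.5 CPM untreated and 75.4 and 79.4 with IAA. RPB10 went from 72.0 and 63.6 CPM to 17.6 and 21.0 (-1.81 ± 0.12, adjusted p = 2.7e-16), RPB5 from 93.8 and 93.7 to 27.9 and 26.2 (-1.79 ± 0.12, adjusted p = 2.7e-17) and RPB1 from 68.7 and 71.4 to 21.9 and 20.9 (-1.71 ± 0.13, adjusted p = 3.9e-16). In these 3 lines each treated library was under 30 CPM and each untreated one above 60. RPB8 (-1.57), RPB11 (-1.43), RPB3 (-1.39) and RPB9 (-1.29) fell by similar amounts, for example RPB9 from 96.1 and 108 CPM to 40.9 and 42.7. The falls in RPB6, from 79.0 and 80.3 CPM to 53.3 and 54.0 (-0.57 ± 0.12, adjusted p = 3.7e-05), and in RPB7, from 56.3 and 49.2 to 39.4 and 36.3 (-0.49 ± 0.11, adjusted p = 0.00047), were smaller. In RPB4 and RPB12 Lama1 did not pass.

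RPB2 was the exception for Lama1. It went from 57.4 and 43.6 CPM to 62.8 and 70.8, which passed as a rise of 0.42 ± 0.12 (adjusted p = 0.0033) with TMM but was -0.44 with total counts and -1.81 with mitochondrial mRNAs. The rise was lost without RPB2 untreated replicate 2 (adjusted p = 0.17) or IAA replicate 2 (adjusted p = 0.10). Relative to the median of all genes the RPB2 value was 0.50 to 0.66 over 4 scalings (TMM, RLE, total counts and mitochondrial mRNAs), against -0.46 to -0.44 in RPB6.

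Lamb1 (chr12:31265234-31329644), the β1 chain, split the lines. Relative to other genes it was higher in RPB2 and RPB6 and lower in 6 lines. In RPB2 it went from 28.6 and 28.1 CPM to 69.4 and 60.1 (1.19 ± 0.14, adjusted p = 4.1e-10). That difference was 0.34 with total counts (adjusted p = 0.036) and turned to -1.02 with mitochondrial mRNAs. In RPB6 Lamb1 went from 26 and 33.1 CPM to 54.0 and 45.6 (0.75 ± 0.14, adjusted p = 7.5e-06), with 0.12 under total counts (adjusted p = 0.46) and -1.22 under mitochondrial mRNAs. Relative to the median of all genes, Lamb1 was 1.29 to 1.43 above it in RPB2 and 0.86 to 0.88 above it in RPB6 over the 4 scalings. The treated RPB2 and RPB6 libraries thus reached CPM values near or below those of untreated WT, 74.7 and 63.4.

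The falls of Lamb1 were in RPB11 (from 15.9 and 19.1 CPM to 9.39 and 7.99; -1.02 ± 0.18, adjusted p = 1.9e-05), RPB10 (from 40.2 and 35.7 to 20.6 and 19.0; -0.94 ± 0.14, adjusted p = 3.8e-07), RPB9 (-0.81), RPB3 (-0.63), RPB7 (-0.60) and RPB5 (-0.54). The RPB3 value of Lamb1 turned to 0.17 with mitochondrial mRNAs, whose share of the counts differed between the treated RPB3 libraries (0.534% in replicate 1, 1.72% in replicate 2, 1.27% and 1.30% untreated). The RPB7 call was lost without untreated replicate 1 (adjusted p = 0.13) or IAA replicate 1 (adjusted p = 0.079), and the other 5 stood without any single library. In RPB1 the 2 laminin chains parted: Lama1 fell by 1.71 on the log2 scale while Lamb1, at 34.8 and 32.1 CPM untreated and 30.6 and 28.6 treated, changed by -0.18 and did not pass.

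Col4a1, the α1 chain of type IV collagen, was higher relative to other genes in the same 2 lines. In RPB6 it went from 28.5 and 24.5 CPM to 66.6 and 67.5 (1.34 ± 0.16, adjusted p = 5.4e-10), and it was still called at 0.71 with total counts, but turned to -0.62 with mitochondrial mRNAs. In RPB2 it went from 13.9 and 11.4 CPM to 27.6 and 29.4 (1.18 ± 0.22, adjusted p = 5.5e-06), against 0.33 with total counts (adjusted p = 0.18) and -1.04 with mitochondrial mRNAs. Measured from the median of all genes, Col4a1 was 1.46 to 1.47 above in RPB6 and 1.28 to 1.42 above in RPB2 over the 4 scalings. The treated RPB6 libraries had the highest Col4a1 of the 52, with no other library above 29.4 CPM. RPB10 showed a fall, from 15.9 and 12.4 CPM to 8.34 and 6.04 (-0.97 ± 0.22, adjusted p = 0.00048), which stood without any single library. Calls in RPB1 (0.45, and -0.11 with mitochondrial mRNAs), RPB11 (-0.60) and RPB12 (-0.64) did not, with adjusted p of 0.35 without RPB1 untreated replicate 2, 0.21 without RPB11 untreated replicate 2 and 0.40 without RPB12 IAA replicate 1.

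**Figure D3:**
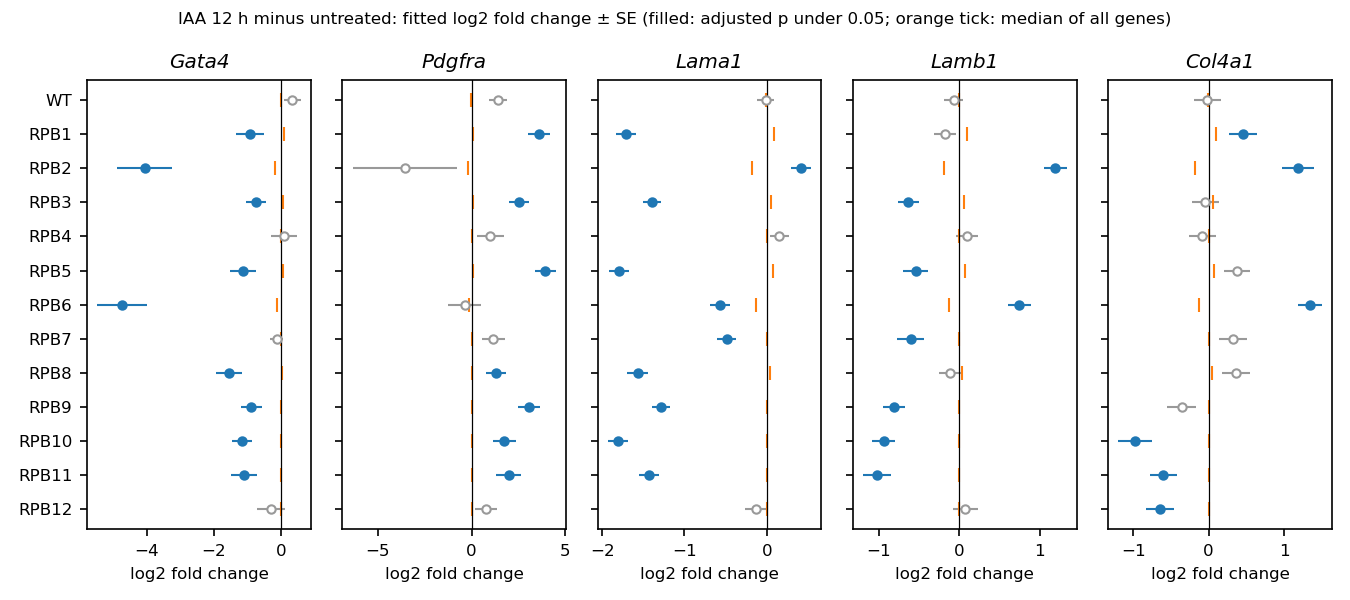
Response of 5 primitive endoderm genes to 12 h of IAA in 13 lines, as log2 fold change (IAA over untreated) with its SE, TMM-scaled. Filled points have an adjusted p under 0.05 (edgeR) and the orange tick is the median of all genes. Lama1 is lowest in RPB10 at -1.81, and Col4a1 and Lamb1 are highest in RPB6 and RPB2, where both turn below 0 when scaled to mitochondrial mRNAs.

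Counts of members called in a line are given beside the share of all genes called there; with 6 members the 2 were not tested against each other. In WT none of the 6 tested members was called by edgeR (1.65% of all genes were), with 1, Pdgfra, at an unadjusted p under 0.05. RPB4 had none either (2.08% of genes), with 0 at an unadjusted p under 0.05, and DESeq2 called 0 in both lines. RPB12 had 1 lower (4.79%). There were 4 called in each of RPB1, RPB2 and RPB6: RPB1 2 higher and 2 lower (66.3% of genes called), RPB2 3 higher and 1 lower (61.9%) and RPB6 2 higher and 2 lower (60.7%). RPB3 and RPB5 each had 1 higher and 3 lower (47.7% and 59.1%), RPB8 1 higher and 2 lower (61.7%) and RPB7 2 lower (41.3%). RPB9 had 1 higher and 3 lower (34.8%), RPB10 1 higher and 4 lower (39.4%) and RPB11 1 higher and 4 lower (23.7%). Of these 14 calls in RPB9, RPB10 and RPB11, 9 stood without any single library.

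Responses were then set against that of WT to IAA. The 12 contrasts share the WT libraries, so they are not independent of each other. Of 72 differences 7 were higher and 25 lower, and 19 of the 32 stood without any single library and 10 under both total-count and mitochondrial scaling. RPB4 (0.284% of all genes called) and RPB12 (0.53%) had none by edgeR or DESeq2, with 0 and 1 (Col4a1) at an unadjusted p under 0.05. Only lower calls came from RPB3, with 3 (28.2%), RPB9, with 3 (18.0%), RPB11, with 3 (11.3%), RPB10, with 4 (25.6%), RPB7, with 2 (25.2%), and RPB8, with 2 (49.5%). RPB1 gave 1 higher and 2 lower (49.1%), RPB5 1 and 3 (42.3%), RPB6 2 and 2 (54.1%) and RPB2 3 and 1 (55.5%). Lama1 fell further than in WT in 9 lines, from -1.79 ± 0.16 in RPB10 to -0.47 ± 0.16 in RPB7. The RPB7 difference was lost in 4 fits without 1 library, with an adjusted p of 0.055 without WT untreated replicate 2, 0.065 without WT IAA replicate 2, 0.096 without RPB7 untreated replicate 1 and 0.091 without RPB7 IAA replicate 2. Its RPB2 difference was 0.43 ± 0.16 with TMM, -0.45 with total counts and -1.71 with mitochondrial mRNAs, and was lost in 6 of 8 fits without 1 library. Gata4 was lower against WT in 9 lines, of which RPB2, RPB6, RPB8 (-1.89 ± 0.46) and RPB10 stood without any single library. In RPB1, RPB3, RPB5, RPB9 and RPB11 the call was lost, with an adjusted p of 0.19 without RPB1 IAA replicate 1, 0.12 without RPB3 IAA replicate 1, 0.087 without RPB5 IAA replicate 1, 0.095 without RPB9 untreated replicate 1 and 0.36 without RPB11 IAA replicate 2.

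Lines were also compared directly where the subunits are structural partners or where their responses had been seen to differ. RPB1, the catalytic subunit with the C-terminal domain, was compared with RPB2, which forms the active centre with it. Lama1 was 2.12 ± 0.18 higher in its response in RPB2 than in RPB1 (adjusted p = 2e-14). Lamb1 differed by 1.37 ± 0.20 (adjusted p = 5.6e-08) with TMM and by -0.27 with mitochondrial mRNAs, and Gata4 by -3.13 ± 1.07 (adjusted p = 0.01). Col4a1 differed by 0.73 ± 0.28 (adjusted p = 0.024), by -0.31 with total counts and by -0.92 with mitochondrial mRNAs. Pdgfra differed by -7.16 ± 2.52 (adjusted p = 0.012), a fitted value that depends on the prior count because the treated RPB2 libraries are at 0. These are 3 higher and 2 lower where 62.6% of all genes were called. The Gata4, Col4a1 and Pdgfra differences were each lost without some single library (adjusted p of 0.11 without RPB2 IAA replicate 2 for Gata4, 0.22 without RPB1 untreated replicate 1 for Col4a1 and 1 without RPB2 untreated replicate 1 for Pdgfra).

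RPB6, a small subunit shared by the 3 nuclear polymerases, differed from RPB1 in 5 of 6 tested members, 3 higher and 2 lower (63.4% of all genes called). Lama1 differed by 1.14 ± 0.17 (-0.26 with mitochondrial mRNAs), Lamb1 by 0.93 ± 0.20 (-0.47) and Col4a1 by 0.89 ± 0.25 (-0.51), while Pdgfra differed by -3.97 ± 1.08 and Gata4 by -3.80 ± 1.01. The Col4a1 difference was lost without RPB1 untreated replicate 1 (adjusted p = 0.064). Between RPB6 and RPB2 only Lama1 passed, lower in RPB6 by 0.98 ± 0.17 on the log2 scale (0 higher and 1 lower, 16.0% of genes). For the stalk pair RPB7 and RPB4, Lama1 was lower in RPB7 by 0.64 ± 0.16 and Lamb1 by 0.70 ± 0.22 (2 lower, 24.5% of genes). The Lamb1 difference was lost without RPB7 untreated replicate 1 (adjusted p = 0.14), RPB7 IAA replicate 1 (0.11) or RPB4 IAA replicate 2 (0.05). RPB8 against RPB5, both subunits of all 3 nuclear polymerases, gave 1 lower, Pdgfra at -2.61 ± 0.86 (31.6% of genes), lost without RPB8 untreated replicate 2 (adjusted p = 0.28) or RPB5 untreated replicate 2 (0.077). No member passed between the heterodimer partners RPB11 and RPB3 (12.3% of genes) or between RPB12 and RPB4 (0.151%). The Lama1 difference was -0.04 ± 0.16 in the first of these pairs and -0.28 ± 0.18 in the other, and that of Pdgfra -0.54 ± 1.02 and -0.23 ± 0.94, and a missed threshold does not show that responses are alike. Col4a1 had -0.56 ± 0.26 in both (edgeR adjusted p = 0.15 and 0.91), the 1 member of each pair at an unadjusted p under 0.05, and DESeq2 called 0. An F-test across the 12 degron responses called 85.7% of all genes and 5 of 6 members, with an adjusted p of 5.54e-19 for Lama1, 6.46e-14 for Lamb1, 1.17e-10 for Col4a1, 2.23e-05 for Gata4 and 0.00169 for Pdgfra, and 0.648 for Dab2.

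The collagen and laminin partners were set side by side. Col4a2, which starts head to head with Col4a1, had a log2 fold change of 1.47 in RPB2 and 1.19 in RPB6 with TMM, and fell in RPB10 (-1.41), RPB9 (-0.96), RPB3 (-0.75) and RPB11 (-0.69). Over 13 lines the fold changes of Col4a1 and Col4a2 had a Pearson correlation of 0.86, which was 0.66 without RPB2 and RPB6 and 0.72 with total counts. The points share libraries, scaling and the 22 exon bases printed above. WT Col4a2 itself had -0.71 (adjusted p = 0.057). Lamc1, the γ1 chain, went from 735.7 and 541.3 CPM to 1576 and 1514 in RPB2 (1.28) and from 767.4 and 790.6 to 1542 and 1374 in RPB6 (0.90), and fell in RPB10 (-0.93) and RPB1 (-0.73). Lamb1 and Lamc1 had a correlation of 0.82 over 13 lines, which was 0.39 over the 11 lines without RPB2 and RPB6. Lama1 and Lamb1 had 0.70, and 0.61 without those lines. The 3 chains of 1 trimer thus did not move by equal amounts with TMM: in RPB6 Lamb1 and Lamc1 were higher and Lama1 lower relative to other genes. With mitochondrial mRNAs Lamb1 was lower too. Lamc1 and Col4a2 values under that scaling are not given here, so their rises in RPB2 and RPB6 hold for TMM only. Gata4 and Lama1 had a correlation of -0.11 over 13 lines and 0.92 over the 11 lines without RPB2 and RPB6. In RPB2 and RPB6 Gata4 nearly vanished, while Lama1 changed by 0.42 and -0.57 with TMM.

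**Figure D4:**
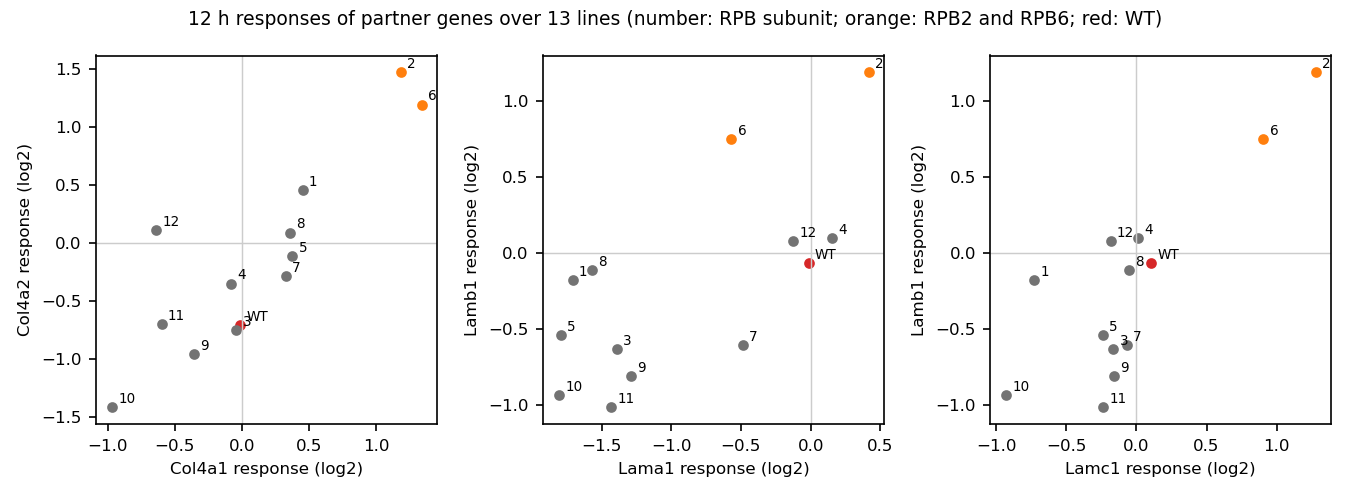
Log2 fold changes after 12 h of IAA (TMM-scaled) of partner genes over 13 lines, Col4a2 against Col4a1, Lamb1 against Lama1 and Lamb1 against Lamc1, 1 point per line, RPB2 and RPB6 in orange and WT in red. RPB2 and RPB6 lie at the upper right for Col4a1 with Col4a2 (Pearson 0.86 over 13 lines, 0.66 without them) and apart from the other lines for Lama1 with Lamb1. Values of Col4a1 and Lamb1 in RPB2 and RPB6 turn below 0 when scaled to mitochondrial mRNAs.

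Untreated degron lines were compared with untreated WT to see whether the members differed before IAA. These 12 contrasts share the 2 WT libraries, and line, tag and clone cannot be told apart. Lamb1 was lower than in WT in all 12 lines, and each call stood without any single library. Against 74.7 and 63.4 CPM in WT, untreated Lamb1 was lowest in RPB7 at 18.7 and 14.4 CPM (-2.04 ± 0.13, adjusted p = 2.5e-17) and RPB11 at 15.9 and 19.1 (-1.97 ± 0.14, adjusted p = 1.9e-15). It was nearest to WT in RPB3 at 45.6 and 42.3 CPM (-0.65 ± 0.12, adjusted p = 4.9e-05) and RPB8 at 40.9 and 46.0 (-0.67 ± 0.12, adjusted p = 4e-05). No degron library overlapped WT. Scaled to mitochondrial mRNAs, the Lamb1 differences in RPB3, RPB9 and RPB10 were -0.69, -0.62 and -0.51 and no longer passed (adjusted p of 0.18, 0.36 and 0.24). Col4a2 was likewise lower than WT in all 12 lines, from -0.65 to -1.92.

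Lama1 was lower in untreated RPB12, at 25.8 and 28.1 CPM against 79.6 and 76.5 in WT (-1.53 ± 0.12, adjusted p = 2.3e-14), and less so in RPB2 (-0.64), RPB4 (-0.63) and RPB7 (-0.56). Those 4 stood without any single library, while calls in RPB11 (-0.36) and RPB9 (0.39, the only higher one) did not. Col4a1 was lower in RPB2 (-0.87 ± 0.19), and its calls in RPB7 (-0.64) and RPB10 (-0.71) were lost in at least 1 fit without a library. Gata4 was lower in RPB12 (-1.40) and RPB4 (-1.31), and, not standing without each library, in RPB1 (-1.07), RPB11 (-1.01) and RPB2 (-0.68). Calls of Pdgfra in RPB2 (-2.19 ± 0.82) and Dab2 in RPB7 (-2.38 ± 0.94) rested on few counts and did not stand without each library. Altogether 2 of 72 differences were higher and 27 lower. Of these 29, 20 stood without any single library and 15 under both total-count and mitochondrial scaling. A single lower call was found for RPB3 (29.9% of all genes called), RPB5 (17.9%), RPB6 (24.5%) and RPB8 (20.0%), and 2 for RPB1 (21.2%) and RPB10 (31.8%). RPB4 (33.1%), RPB11 (22.8%) and RPB12 (40.2%) gave 3 lower each, and RPB2 5 (40.8%). The lines with a higher call were RPB7, with 1 higher and 4 lower (53.7%), and RPB9, with 1 and 1 (15.7%).

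Untreated RPB7 cells stood apart for the 2 transcription factors on chromosome 14. The 2 untreated RPB7 libraries also differed from each other more than those of any other group. Their chi-square was 14.7 per degree of freedom, the highest of 32 groups. Gata4 was at 18.1 and 16.9 CPM against 6.72 and 7.10 in WT (1.34 ± 0.22, adjusted p = 1.4e-06), a call that stood without any single library. Sox7 (chr14:63943673-63950732) had 24 and 8 counts, 3.21 and 1.39 CPM, against 0 to 5 counts in every other library of the 12 h set. In a fit without the filter on low counts Sox7 was 2.70 ± 0.72 above WT (edgeR adjusted p = 0.001). After IAA RPB7 kept Gata4 at 19.8 and 12.6 CPM, while Sox7 dropped from 32 counts in the 2 libraries to 2, a ratio of 14.8-fold lower (95% counting interval 3.77 to 127; fitted -3.72 ± 0.82, adjusted p = 7.1e-05, same fit). Untreated RPB7 was named because its Sox7 was the highest of the groups, so both Sox7 p-values are no support beyond the counts. The interval covers counting error only, not the difference between the libraries with 24 and 8 counts. Gata4 and Sox7 lie 671980 bases apart with 13 annotated genes between them. Of the 6 of these that were tested, 2 were higher in untreated RPB7 (Xkr6 1.62, Pinx1 0.60) and 3 lower (Fam167a -4.11, Tdh -0.37, Mtmr9 -0.83). That comparison was added after the levels had been seen. Of the 16 tested extraembryonic endoderm genes of the lists below, 6 were higher and 6 lower in untreated RPB7 than in WT. In that comparison 53.7% of all genes were called. Apoe (2.07), Amn (2.01), Otx2 (1.61) and Foxa3 (1.59) were picked from the endoderm lists as higher there and do not stand for those lists. Nanog was lower there (-1.08). Parietal endoderm markers summed to 420 to 463 CPM against 665 to 669 in WT, and visceral ones to 39.3 to 54.3 against 48.7 to 49.4. Fibroblast markers (14 genes, mostly Vim) summed to 60.2 to 70.6 CPM there against 130 to 136 in WT. Their part in the result was not tested.

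The set at 0 h and 1 h asked whether the members had moved soon after IAA. None had passed at 1 h: 0 of 7 tested members in RPB1 (24.9% of all genes called), 0 in RPB3 (0.358%) and 0 in RPB6 (1.54%), by edgeR's test, with 0 at an unadjusted p under 0.05 and 0 called by DESeq2. Gata4 in RPB6, which nearly vanished by 12 h, was at 8.50 and 5.42 CPM at 0 h and 9.32 and 7.59 at 1 h. Lama1 in RPB1 was at 77.0 and 80.5 CPM at 0 h and 82.1 and 84.8 at 1 h. Pdgfra in RPB1 was at 0.900 and 1.19 CPM at 0 h and 0.799 and 1.05 at 1 h. Over the 21 tests log2 fold changes ran from -1.10 for Sox7 in RPB3 to 0.47 for Gata4 in RPB1.

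**Figure D5:**
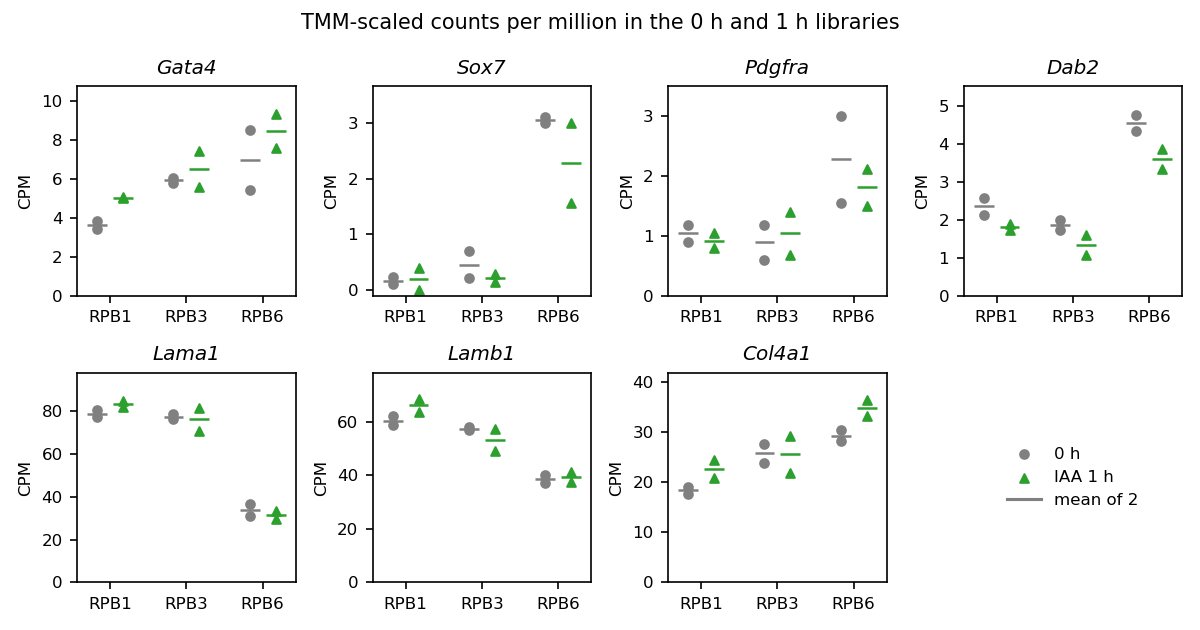
Levels (CPM, TMM-scaled) of 7 members in the 12 libraries of RPB1, RPB3 and RPB6 before IAA (0 h, grey) and after 1 h (green), 1 point per library. No difference between 0 h and 1 h passed in any line, and RPB6 is lower than the other lines in Lama1 and Lamb1 and higher in Sox7 at both times.

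Between lines the 0 h levels did differ, which was tested after the values had been seen. Sox7 was at 3.11 and 2.99 CPM in RPB6, 0.112 and 0.238 in RPB1 and 0.216 and 0.700 in RPB3. The difference was 4.04 ± 0.67 from RPB1 (adjusted p = 5.2e-05) and 2.67 ± 0.53 from RPB3 (adjusted p = 0.00025). Sox7 passed the filter on low counts only through RPB6, with 30 and 27 counts at 0 h. It had 1 and 2 counts in RPB1 and 2 and 7 in RPB3. Its p-values are thus no support beyond the counts themselves. Lama1 was lower in RPB6, at 31.1 and 36.7 CPM against 77.0 and 80.5 in RPB1 and 76.2 and 78.6 in RPB3 (-1.22 ± 0.10 and -1.19 ± 0.10), and Lamb1 by -0.64 and -0.57. Dab2 was higher in RPB6 than in RPB3, 4.35 and 4.76 CPM against 1.73 and 2.00 (1.28 ± 0.27), and Col4a1 higher than in RPB1 (0.67 ± 0.14). Each of these stood without any single library. Differences of Pdgfra (1.13 from RPB1, 1.36 from RPB3), of Gata4 from RPB1 (0.94, adjusted p = 0.11 without RPB6 0 h replicate 1), of Dab2 from RPB1 (0.94, 0.055 without RPB1 0 h replicate 2) and of Col4a1 between RPB3 and RPB1 (0.49) did not. In counts these were 5 higher and 2 lower for RPB6 against RPB1 (55.9% of all genes called), 3 and 2 for RPB6 against RPB3 (62.2%) and 1 and 0 for RPB3 against RPB1 (21.0%).

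Nanog was at 282 and 335 CPM in RPB6 at 0 h against 912 and 894 in RPB3. Visceral endoderm markers (10 genes, mostly Lrp2) summed to 134 to 145 CPM in RPB6 at 0 h and to 56.5 to 56.9 in RPB1. Their part in the result was not tested. The untreated RPB6 libraries of the 12 h set did not share these levels, with Lama1 at 79.0 and 80.3 CPM and Sox7 at 0 and 0.338. The 2 sets may differ in library type, so the values stand side by side only.

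Genes around the members were counted from lists chosen with earlier results known. The shares of all genes called, printed above by line, apply to these counts too, with 61.9% in RPB2, 60.7% in RPB6, 66.3% in RPB1 and 61.7% in RPB8. Of 19 basement membrane partners, which share Lamc1, Col4a2, Lama5 and Lamb2 with the family list below and include the nidogens, collagen-modifying enzymes and integrins, 17 were higher and 1 lower in RPB2 after IAA (median 1.16, all genes -0.19) and 14 higher and 1 lower in RPB6 (median 0.83, all genes -0.13). Scaled to total counts these became 11 and 1 in RPB2 and 9 and 4 in RPB6, and scaled to mitochondrial mRNAs 0 and 14 and 0 and 17, where 13910 and 13958 of all 17928 genes were lower. Sparc, a collagen-binding matrix protein, had fold changes of 2.05 in RPB2 and 1.54 in RPB6, P4hb, a subunit of collagen prolyl 4-hydroxylase, 1.87 and 1.68, and Nid2, a nidogen, 1.78 and 1.25 (log2, TMM). In other lines the list was split, with 4 higher and 8 lower in RPB1, 6 and 6 in RPB5, 7 and 7 in RPB7, 3 and 9 in RPB10 and 0 and 0 in WT. Parietal endoderm markers (7 genes, Sparc among them, with Vim also in the fibroblast list) summed to 2994 to 3035 CPM in treated RPB2 against 801 to 878 untreated, and to 2384 to 2465 in treated RPB6 against 896 to 903. Most of that sum was Sparc, while the more specific markers Thbd and Pth1r were the 2 of the 7 that averaged under 1 CPM in untreated libraries. Relative to other genes, fibroblast markers went from 275 to 282 CPM to 609 to 630 in RPB6, mostly Vim, with Dcn and Postn at 0. Of the 14, 8 averaged under 1 CPM in untreated libraries. Both marker sums are TMM-scaled and were not taken under the other scalings. The part of other cells in these results was not tested.

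Of 25 other extraembryonic endoderm genes, from apolipoproteins to the endocytic receptors of the visceral endoderm, 16 were tested. In RPB2 4 were higher and 1 lower (median 0.55) and in RPB6 4 and 1 (median 0.42), among them Apoe (1.58 and 1.26) and the keratin gene Krt8 (1.44 and 1.30). RPB9 had 1 higher and 5 lower, RPB1 3 and 3 and WT 0 and 0. With total counts these became 3 and 3 in RPB2 and 2 and 3 in RPB6, and with mitochondrial mRNAs 0 and 12 and 0 and 11. Of the 10 visceral endoderm markers 7 averaged under 1 CPM in untreated libraries, and Afp was at 0 there. Of 11 epiblast factors, 10 were lower and 1 higher in RPB2 (median -2.79), RPB6 (-2.39) and RPB8 (-1.27). In RPB1 9 were lower and 0 higher, and in RPB5 9 lower and 1 higher. RPB10, with the lowest Lama1 response, had 3 higher and 4 lower, and WT 3 lower. Nanog itself fell in RPB1 from 865.9 and 851 CPM to 115.8 and 104.2 (-2.96), and in RPB2 (-2.03), RPB8 (-2.06), RPB5 (-1.91) and RPB6 (-0.97). Of 18 tested genes of FGF and PDGF signalling, 4 were higher and 8 lower in RPB1 and likewise in RPB6, against 5 and 9 for RPB2 and 3 and 10 for RPB8. Fgf4, the ligand that ES cells make, fell by 3.33, 4.02 and 3.97 on the log2 scale in RPB1, RPB2 and RPB6. Of 10 tested definitive endoderm and primitive streak genes 5 were higher and 0 lower in RPB1 (median 1.39), against 1 and 5 in RPB2 and 0 and 5 in RPB6. Of 18 tested relatives of the members from the same gene families, 8 were higher and 2 lower in RPB2 with TMM and 0 and 12 with mitochondrial mRNAs, and in RPB6 6 and 3 and 0 and 15.

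Genes whose 12 h responses were most like a member's were sought over the 13 lines among 12987 genes of 1 CPM or more, as a description with no test. Gata4 was closest to Zfp97 (Pearson 0.98), Chsy1 (0.98) and Nufip1 (0.97), and Pdgfra to Ccdc134 (0.98), Tchp (0.97) and Sh2b1 (0.97). Lama1 was closest to Usp48 (0.96), Ggt1 (0.94) and Thada (0.93), Lamb1 to Gpx2, Map7d2 and Nr1i3 (0.96 each), and Col4a1 to Nefm (0.97), Col18a1, another basement membrane collagen (0.95), and Tpcn1 (0.93). None of these 15 was another member.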

How the data were processed

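RNA was counted in 64 libraries of mouse ES cells, 52 in the 12 h set (26 groups of 2) and 12 at 0 h and 1 h (6 groups of 2). Raw counts, whole and not normalized, stand in the 1 table the authors deposited. The submitters' processing notes name builds mm10 and dm6 and, with no role stated, featureCounts, STAR, Bowtie2, SAMtools, cutadapt 1.18, DESeq2 and deepTools. Neither the annotation nor the strand setting was found in the labels, so reads that Col4a1 shares with Col4a2, or another member with an antisense gene, cannot be split. Columns were matched to samples by name, 4 that match no sample were not used, and 0 rows name no gene. GENCODE M21 names 55154 of the 55335 IDs.

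Both sets were fitted apart, because the labels name poly(A) libraries for the 12 h samples only, with edgeR 4.0.16 and limma 3.58.1 in R 4.3.3: TMM scaling, filterByExpr, glmQLFit with 1 coefficient per group and glmQLFTest, Benjamini-Hochberg adjusted over all genes tested (17928 in the 12 h set with 26 residual degrees of freedom, 15658 in the other with 6). RPKM used the union of exons. The SE of a log2 fold change from edgeR was taken as its size over the square root of the F statistic. At very low counts it is only approximate. Total counts per library are in the report. Intervals cover counting error only. The counts of 2 libraries of a group were compared by chi-square, which was 1.11 to 14.7 per degree of freedom over 32 groups, so none was taken for a repeat deposit of another. The steps were tested on simulated data. Alternatives were RLE, total-count and mitochondrial-mRNA scaling, no filter, DESeq2 1.42.0, a replicate block, fits of 4 libraries and each library left out. Tables and figures were made with Python 3.11.15, pandas 2.3.3, numpy 2.4.6, scipy 1.17.1 and matplotlib 3.10.9.

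The members and lists were chosen with earlier results of these data known. Named are all members, their partners, up to 4 genes per list by mean CPM, and for each member of 1 CPM or more the 3 genes with the most similar responses. A comparison at 0 h and one of the neighbours of Gata4 and Sox7 were added after the levels had been seen.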

Additional observations from a re-analysis of the deposited data

Results flagged for a closer look

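The responses of 5 members to 12 h of IAA differed between the 12 degron lines in an F-test across all of them (edgeR, adjusted over all genes), and are given here for that reason. The adjusted p was 5.54e-19 for Lama1, 6.46e-14 for Lamb1, 1.17e-10 for Col4a1, 2.23e-05 for Gata4 and 0.00169 for Pdgfra, in a test that called 85.7% of all genes.

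Pairs of lines were also compared in a test of the difference itself (log2, TMM, edgeR). The pairs were structural partners or lines whose responses had been seen to differ in these data. That most differences were of RPB2 and RPB6 against RPB1 thus follows in part from the choice of pairs. From RPB1, RPB2 differed by 2.12 in Lama1, 1.37 in Lamb1, 0.73 in Col4a1, -3.13 in Gata4 and -7.16 in Pdgfra. RPB6 differed from RPB1 by 1.14 in Lama1, 0.93 in Lamb1, 0.89 in Col4a1, -3.80 in Gata4 and -3.97 in Pdgfra. RPB6 minus RPB2 was -0.98 in Lama1, RPB8 minus RPB5 was -2.61 in Pdgfra, and RPB7 minus RPB4 was -0.70 in Lamb1 and -0.64 in Lama1. Of these 14 differences 8 stood without any single library, and 7 under both total-count and mitochondrial scaling. The Pdgfra value between RPB2 and RPB1 rests on RPB2 libraries with 0 to 3 counts.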

How the results depend on the processing

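Scaling moved the results most. Scaled to mitochondrial mRNAs, 23 values that were called before or after changed sign. Among 12 h responses these were Col4a1 in RPB1 (-0.11), RPB2 (-1.04), RPB3 (0.78), RPB6 (-0.62) and RPB8 (-1.15), Lamb1 in RPB2 (-1.02), RPB3 (0.17) and RPB6 (-1.22), Dab2 (-1.67) and Lama1 (-1.81) in RPB2 and Pdgfra in RPB8 (-0.16). Against WT they were Col4a1 in RPB2 (-0.93), RPB6 (-0.52) and RPB8 (-1.04), Lamb1 in RPB2 (-0.86), RPB3 (0.33) and RPB6 (-1.06) and Lama1 in RPB2 (-1.71). Between RPB2 and RPB1 they were Col4a1 (-0.92) and Lamb1 (-0.27), and between RPB6 and RPB1 Col4a1 (-0.51), Lamb1 (-0.47) and Lama1 (-0.26). Of such values total counts reversed Lama1 in RPB2 (-0.44, and -0.45 against WT) and Col4a1 between RPB2 and RPB1 (-0.31). Higher calls became 5 of 13 at 12 h, 0 of 7 against WT, 0 of 6 between pairs and 1 of 2 in untreated lines with mitochondrial mRNAs, and lower calls in untreated lines 14 of 27. With total counts 4 were higher against WT and 1 between pairs. The shift of the median of all genes accounts for part of this by construction, and the cause of the shift was not tested.

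Without RPB2 and RPB6 the correlations over lines became 0.39 for Lamb1 with Lamc1, -0.48 for Gata4 with Pdgfra (0.61 over 13 lines), 0.92 for Gata4 with Lama1, 0.38 for Col4a1 with Lamb1 (from 0.75), -0.64 for Pdgfra with Nanog (from -0.03) and 0.61 for Lama1 with Nanog (from 0.32). With total counts they were 0.51, 0.20 for Gata4 with Lama1, 0.48 for Col4a1 with Lamb1 and 0.26 for Pdgfra with Nanog. The median of Lamb1 over libraries with IAA was 28.0 CPM with TMM and 31.0 without it.

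Leaving out 1 library in turn gave 12 to 14 higher and 26 to 27 lower calls at 12 h, 4 to 7 and 18 to 26 against WT, 4 to 6 and 7 to 8 between pairs, 1 to 2 and 20 to 28 in untreated lines, 6 to 9 and 4 at 0 h, and 0 and 0 at 1 h. DESeq2, RLE, no filter and fits of 4 libraries kept each of these counts within 1.5 times and reversed no value, as did the replicate block, with 14 higher and 26 lower calls at 12 h. Libraries with the same number did not deviate together (correlation -0.148 to 0.0551), so the numbers were not taken as pairs, and the pairs in RPB7, whose correlation was lowest, gave the same 13 and 27 when crossed. Depth limits Gata6, Sox17, Foxa2, Sox7, Dab2 and Pdgfra, which had few or no counts in most libraries.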

Other observations

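The members under the filter on low counts gave 10 calls when no filter was applied (edgeR, adjusted p under 0.05), 5 of them of Sox7. Those of Sox7 in RPB7 at 12 h and in RPB6 at 0 h are described above. The fits without a filter held 37684 genes in the 12 h set and 33386 in the other. The share of all these genes called is not given here, so 10 is not read as many or few. The Sox17 and Gata6 calls below were named because they passed, and rest on 0 to 9 counts per library. Sox17, a SOX factor of the early endoderm, had 0 counts in both untreated RPB1 libraries and 6 and 2 after IAA (adjusted p = 0.015). With 3 counts over the group put in place of 0 it was 2.48-fold higher. The 95% counting interval began at 1.59-fold. Sox17 also had 0 counts in both untreated RPB12 libraries against 5 and 3 in WT (adjusted p = 0.024). With 3 counts in place of 0 it was 2.45-fold lower, and the 95% counting interval began at 1.57-fold. Gata6, the first factor of the lineage, had 9 and 6 counts in RPB6 at 0 h, 1 and 1 in RPB1 and 2 and 4 in RPB3. The ratio of RPB6 to RPB1 was 6.95 (95% counting interval 1.62 to 62.6, adjusted p = 0.013). Foxa2 gave no call.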
